A study of Homo sapiens with 14 samples.

Results

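The 42 genes described here encode the machinery of autophagy and its lysosomal end point, and all 42 were found by gene symbol among the 19775 genes named on the array. For each gene the probe set naming that gene alone with the highest mean over all arrays was used. In autophagy a membrane sac closes around cytoplasm, fuses with the lysosome and hands its contents to acid hydrolases. The ULK kinase complex starts the process, a lipid kinase complex around Beclin 1 marks the membrane, ubiquitin-like conjugation reactions attach ATG8 proteins such as LC3B to it, and cargo receptors tether what is to be degraded. The transcription factors TFEB, TFE3 and MITF switch on many lysosomal genes, and p53 family proteins are known to induce the lysosomal membrane protein DRAM1. In hepatocytes the pathway recycles proteins, lipid droplets and mitochondria.

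RNA came from Hep3BTAp73β cells, derived from the hepatocellular carcinoma line Hep3B, which lacks p53, and made to express TAp73β when doxycycline is added. Cells in doxycycline (Dox+, 1 μg/mL) were set against untreated cells (Dox−) after 12 h (2 cultures a group), after 24 h (2 a group) and after 48 h (3 a group), with 1 Affymetrix Human Genome U133 Plus 2.0 array for each of the 14 cultures, which the labels call biological replicates. Both groups carried the repressor plasmid pcDNA6/TR and the TAp73β plasmid pT-REx-DEST30, were selected with blasticidin and G418 and grown from picked colonies, so a clone stands in for the line. Cells without the construct were not on these arrays, and the effects of doxycycline itself and of TAp73β cannot be told apart. TP73 lay between 7.89 and 8.30 on the Dox+ arrays and between 5.82 and 6.08 on the Dox− arrays, on the log2 scale of the deposited values. All 10 hepatocyte markers measured exceeded the level of the median gene, with means from 8.36 to 14.38. Their mean per array was 12.13 to 12.17 on Dox− and 11.83 to 11.91 on Dox+ arrays at 48 h, when 6 of the 10 were lower (APOA1, TTR, FGB, TF, AFP and APOH, from -0.86 to -0.29) and SERPINA1 higher (0.54); the part of this in the results was not tested. In such bulk RNA, fewer cells of a type and less RNA per cell cannot be told apart. The level of a gene below is its deposited log2 value, and a difference is Dox+ minus Dox− in log2 units with its standard error. Replicate arrays spread less at 48 h than before: the root mean square SD over genes was 0.209 for Dox− and 0.196 for Dox+ at 12 h, 0.184 and 0.15 a day into treatment, and 0.105 and 0.111 at 48 h.

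By 48 h of TAp73β induction, 11 of the 42 genes were higher and 7 lower, and none of the 18 reached a log2 difference of 1 (limma, Benjamini-Hochberg adjusted p under 0.05 over all genes). The genes that rose were DRAM1, DRAM2, ULK1, WIPI1, MAP1LC3B, GABARAPL1, TFE3, LAMP1, CTSD, CTSL and HEXA, by 0.21 to 0.66. Those that fell were ATG13, WIPI2, ATG3, ATG16L1, SQSTM1, NBR1 and MCOLN1, with differences from -0.17 to -0.31. Among all genes 24.2% were called, 11.3% higher and 12.9% lower, against 26.2% higher and 16.7% lower of the 42. All Dox+ arrays lay above all Dox− arrays for 15 of the 42 genes and below for 12, where 17.4% and 21.9% of all genes, 39.3% together, had groups apart. Leaving out 1 array left 10 to 11 of the 42 genes higher and 2 to 5 lower, the fewest lower without Dox− replicate 1 or 3 or Dox+ replicate 1 or 2, and 4 without Dox− replicate 2. Brighter genes were called more often: of the 9888 genes at or above the median gene, 40.3% were called in either direction, and of the 39 of the 42 in that range 43.6%. The share called was thus near that of other well expressed genes, with 25.6% against 17.5% higher and 17.9% against 22.8% lower. The median difference of the 42 genes was 0.01, beside -0.02 over all genes and -0.03 over those at or above the median gene.

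At 24 h, DRAM1 and ATG10 were higher and MAP1LC3B, SQSTM1 and MCOLN1 lower, which is 11.9% of the 42 genes, against 5.83% of all genes (3.01% higher and 2.81% lower). At or above the median gene the share was 12.8% of the 39 genes, against 9.72% of all such genes (4.66% higher and 5.06% lower). The 3 falls rested on all 4 arrays: none of them passed when any one array was left out, nor after quantile normalization, under which genes lower over the whole array went from 556 to 345 and genes higher from 596 to 615. DRAM1 did not pass without Dox− replicate 2 or Dox+ replicate 1, and ATG10 did not either. The median difference was -0.15, beside 0.02 over all genes and -0.04 over those at or above the median gene. Both Dox+ arrays lay below both Dox− arrays for 21 genes and above them for 7. Over all genes these shares were 23.7% and 26.6%, or 50.3% together, and they were not taken for brighter genes alone. At 12 h no gene of the 42 passed (limma, lowest adjusted p = 0.252), against 0.668% of all genes (0.647% higher and 0.0202% lower) and 1.03% of those at or above the median gene (1% and 0.0303%), and 2 higher and 2 lower had an unadjusted p under 0.05. The median difference at 12 h was 0.04, beside -0.04 over all genes and 0.07 over those at or above the median gene. The Dox+ arrays were apart from the Dox− arrays for 8 genes above and 7 below, against 19.3% and 27.6% of all genes (46.8% together).

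**Figure D1:**
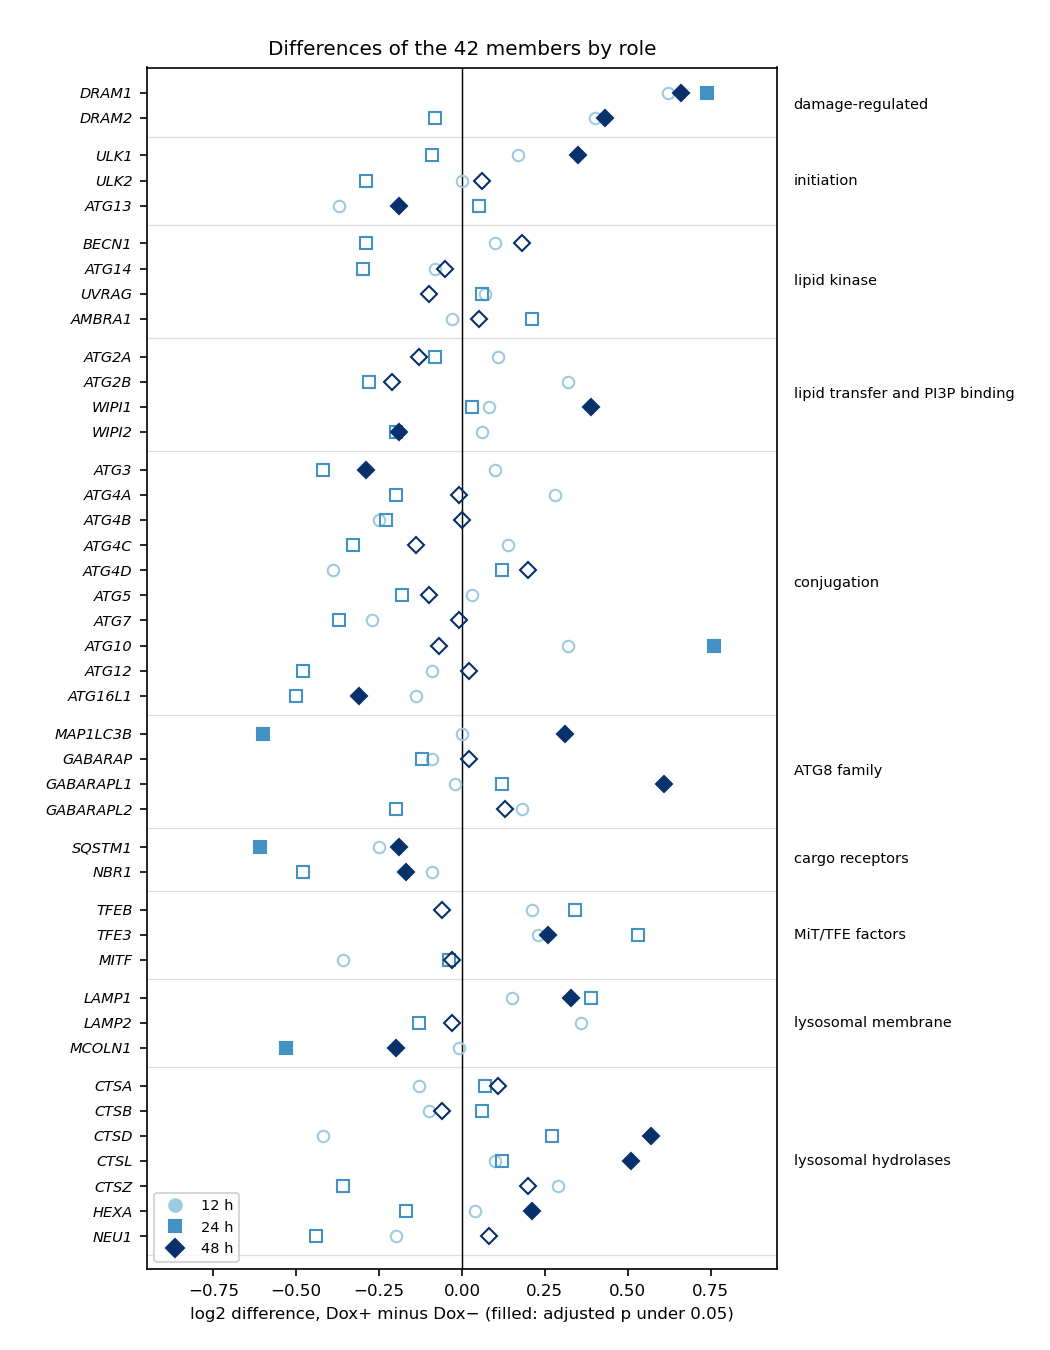
Log2 difference (Dox+ minus Dox−, horizontal axis) of each of the 42 genes, grouped by role, at 12 h (circles), 24 h (squares) and 48 h (diamonds). Filled symbols passed the test (limma, adjusted p under 0.05): none at 12 h, 5 at 24 h and 18 at 48 h, all between -0.61 and 0.76.

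Of the damage-regulated autophagy modulators, DRAM1 and DRAM2, both were higher at 48 h. DRAM1 encodes a lysosomal membrane protein needed for p53-induced autophagy. On the Dox− arrays, in the order of the times, it read 8.49 and 8.94, then 9.01 and 8.82, then 9.30, 9.53 and 9.46. On the Dox+ arrays it read 9.25 and 9.41, then 9.72 and 9.60, then 9.99, 10.09 and 10.17. Every Dox+ array lay above every Dox− array of its time point. The difference was 0.62 ± 0.19 (SE) at 12 h, 0.74 ± 0.14 at 24 h and 0.66 ± 0.08 at 48 h, or 1.54-, 1.67- and 1.58-fold, with limma adjusted p-values of 0.252, 0.0162 and 0.00033. DRAM1 thus passed from 24 h on, and its size was much the same at the 3 times. DRAM2, its relative, was 0.43 ± 0.06 higher at 48 h (limma, adjusted p = 0.000715), and its second probe set rose by 0.54. At 24 h the DRAM2 groups overlapped, with a difference of -0.08.

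The initiation genes moved in opposite directions. ULK1, the kinase that starts autophagy, read 7.75, 7.69 and 7.80 on the Dox− arrays and 8.12, 7.96 and 8.21 on the Dox+ arrays at 48 h. The groups did not overlap, and the difference was 0.35 ± 0.07 (1.27-fold; limma, adjusted p = 0.00852). At 12 h ULK1 read 7.81 and 7.27 against 7.98 and 7.43 with doxycycline, and at 24 h 7.66 and 8.17 against 7.80 and 7.85. These groups overlapped, and the replicates of one group differed by more than the groups did. ATG13, the adaptor of the ULK complex, was lower at 48 h (-0.19 ± 0.06, adjusted p = 0.043), a call lost in 11 of 15 alternative analyses, among them those without any one array except Dox+ replicate 3. ULK2, a kinase related to ULK1, had a mean below the median gene and a difference of 0.06 at 48 h, which did not pass.

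None of the 4 genes of the lipid kinase complex passed at any time, although a second BECN1 probe set was lower at 24 h (-0.70). BECN1, its scaffold, had a difference of 0.18 at 48 h (limma, adjusted p = 0.16), with all Dox+ arrays above the Dox− arrays, and ATG14, UVRAG and AMBRA1 lay between -0.10 and 0.05. Among the lipid transfer and lipid-binding proteins that act next, WIPI1 rose by 0.39 ± 0.07 at 48 h (limma, adjusted p = 0.00316) and WIPI2 fell (-0.19 ± 0.06, adjusted p = 0.0373), a call lost without Dox− replicate 1 or 3 or Dox+ replicate 1 or 2. WIPI1 and WIPI2 are related proteins that bind the lipid made by the kinase complex. The other WIPI1 probe set had a difference of 0.22 and did not pass, and at 24 h it was lower (-0.62) where the used one gave 0.03. The lipid transfer proteins ATG2A and ATG2B had differences of -0.13 and -0.21 and did not pass.

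No gene of the 10 in the conjugation machinery was higher at 48 h, and 2 were lower, where 17.5% and 22.8% of all genes at or above the median gene were. ATG3, the enzyme that transfers ATG8 proteins to lipid, fell to 10.40, 10.47 and 10.55 from 10.74, 10.78 and 10.76, a difference of -0.29 ± 0.06 (limma, adjusted p = 0.00831). ATG16L1, which places that reaction on the membrane, fell to 6.81, 6.91 and 6.69 from 7.14, 7.12 and 7.09, a difference of -0.31 ± 0.07 (adjusted p = 0.00908). For both genes the groups were apart. At 24 h 8 of the 10 genes had both Dox+ arrays below both Dox− arrays, none of which passed, where 23.7% of all genes had groups apart in this direction and 50.3% in either. The largest of these differences were -0.50 for ATG16L1, -0.48 for ATG12 and -0.42 for ATG3 (limma, adjusted p = 0.0657, 0.0777 and 0.113). ATG4A, ATG4B, ATG4C and ATG4D, the proteases that trim ATG8 proteins, did not pass at any time. A second probe set of ATG5, the partner of ATG12, was lower at 24 h (-0.74) where the used one gave -0.18.

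ATG10, which conjugates ATG12 to ATG5, was the exception at 24 h. It read 6.88 and 6.52 on the Dox− and 7.51 and 7.42 on the Dox+ arrays, groups that did not overlap, with a difference of 0.76 ± 0.15 (limma, adjusted p = 0.0232). The 3 other ATG10 probe sets did not pass, with differences of -0.65, 0.03 and 0.22 at that time. At 12 h ATG10 read 6.34 and 7.34 against 6.87 and 7.44, and at 48 h 7.30, 7.24 and 7.08 against 7.02, 7.28 and 7.11. The groups overlapped at both times.

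Of the 4 ATG8 family genes, which coat the forming membrane, GABARAPL1 and MAP1LC3B were higher at 48 h. GABARAPL1 read 6.06, 5.92 and 6.06 without and 6.51, 6.70 and 6.67 with doxycycline at 48 h. The groups lay clearly apart, with a difference of 0.61 ± 0.07 (1.52-fold; limma, adjusted p = 0.000354). Its second probe set gave 1.13 ± 0.10. At 12 h GABARAPL1 read 5.52 and 5.92 against 5.57 and 5.82, and at 24 h 5.64 and 5.96 against 5.85 and 6.0, so the groups of this probe set overlapped before 48 h. On the second probe set the Dox+ arrays lay above the Dox− arrays at both earlier times, by 0.49 at each, which did not pass (limma, adjusted p = 0.352 and 0.271). The mean of GABARAPL1 lay below that of the median gene (6.49).

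MAP1LC3B, which encodes LC3B, the usual marker of autophagosomes, fell at 24 h and rose at 48 h. At 12 h it read 10.55 and 9.90 against 10.57 and 9.88. At 24 h it read 10.73 and 10.74 on the Dox− arrays and 10.14 on both Dox+ arrays. At 48 h it read 10.51, 10.55 and 10.61 against 10.79, 10.85 and 10.96 with doxycycline. The groups overlapped at 12 h and were apart, in opposite directions, at the later times. The differences were -0.60 ± 0.12 at 24 h (limma, adjusted p = 0.028) and 0.31 ± 0.07 at 48 h (adjusted p = 0.00777). The change of 0.91 between them had an adjusted p of 0.0493 in the limma fit with array weights and 0.145 without the weights, so a difference between the times was not established; 0.875% of all genes passed with weights and 0.657% in both fits. The second MAP1LC3B probe set did not pass, with -0.36 at 24 h and -0.01 at 48 h. GABARAP and GABARAPL2 differed by 0.02 and 0.13 at 48 h and did not pass.

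The cargo receptors SQSTM1 and NBR1 were lower at 48 h with all arrays. Of the listed receptors outside the 42 genes, OPTN, BNIP3L and FUNDC1 were higher, PHB2 was lower and the rest did not pass. SQSTM1, which encodes p62, links ubiquitinated proteins to LC3. It read 11.66, 11.68 and 11.70 on the Dox− arrays and 11.44, 11.49 and 11.54 on the Dox+ arrays at 48 h, and 11.57 and 11.75 against 10.99 and 11.10 at 24 h. At 12 h the values were 11.72 and 11.31 against 11.49 and 11.04. The groups overlapped at 12 h and were apart at 24 h and 48 h. The difference was -0.61 ± 0.13 at 24 h (limma, adjusted p = 0.0339) and -0.19 ± 0.06 at 48 h (adjusted p = 0.0384). A second SQSTM1 probe set was lower too, by -0.71 and -0.47, and the other 3 did not pass. With p-values adjusted over all probe sets, the first had an adjusted p of 0.0675 at 48 h. NBR1, a relative of SQSTM1, had differences of -0.48 (adjusted p = 0.0695) and -0.17 (adjusted p = 0.0483). The 48 h call was lost for NBR1 without any one array, and for SQSTM1 without any one array except Dox+ replicate 3. In the fit with 1 value for every probe set, a second NBR1 probe set passed at 24 h, with -0.58, and at 48 h, with -0.27. The used one passed at neither time in that fit.

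**Figure D2:**
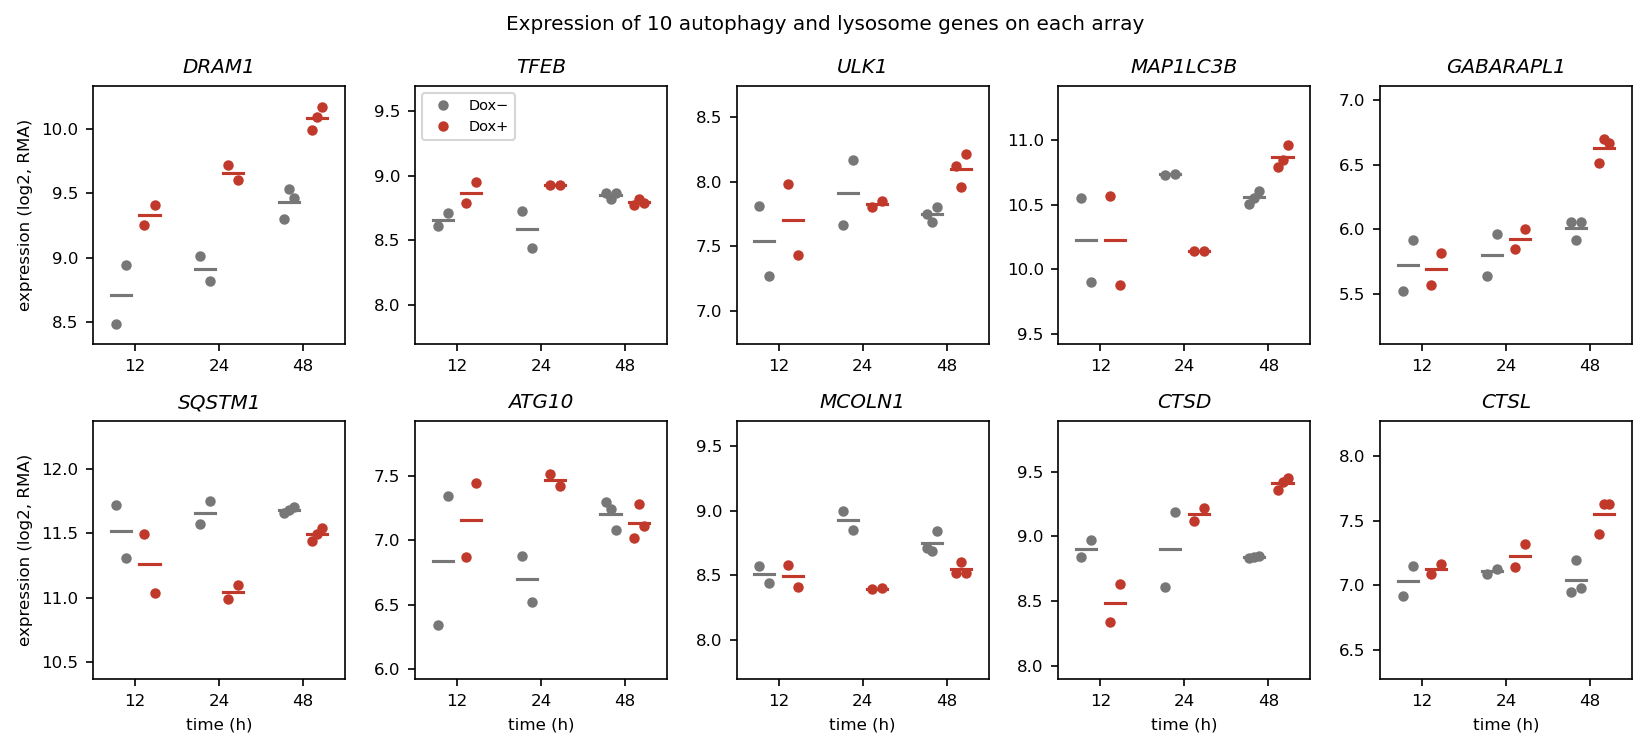
Expression (log2, vertical axis) of 10 of the genes on each array, by hours of treatment, Dox− in grey and Dox+ in red, with short lines for group means. All panels span 2 log2 units, and the level is that of each gene's probe set. MAP1LC3B is lower with doxycycline at 24 h and higher at 48 h, while DRAM1 is higher at each time.

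The MiT/TFE transcription factors bind the promoters of lysosomal genes. TFEB read 8.87, 8.82 and 8.87 on the Dox− arrays and 8.77, 8.82 and 8.79 on the Dox+ arrays at 48 h, a difference of -0.06 ± 0.05 (limma, adjusted p = 0.504). At 24 h it read 8.73 and 8.44 against 8.93 on both Dox+ arrays, and at 12 h 8.61 and 8.71 against 8.79 and 8.95. On this probe set TFEB thus had higher Dox+ arrays at 12 h and 24 h, with differences of 0.21 and 0.34 that did not pass. At 48 h its Dox+ arrays were lower, by the unrounded values. The second TFEB probe set differed from it, with -0.09 at 12 h, 0.05 at 24 h and -0.13 at 48 h, and did not pass either. TFE3 was the member of the 3 that passed, rising by 0.26 ± 0.06 at 48 h (adjusted p = 0.00775), from 9.29, 9.30 and 9.30 to 9.52, 9.54 and 9.60. At 24 h its difference was 0.53 (adjusted p = 0.0538). MITF had a mean below the median gene and differed by -0.03 at 48 h. Changes in the activity or location of these proteins are not seen by an array.

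Among the 10 lysosomal proteins, 4 were higher and 1 lower at 48 h, where 17.5% and 22.8% of all genes at or above the median gene were. LAMP1, the main glycoprotein of the lysosomal membrane, read 13.36, 13.31 and 13.35 without and 13.62, 13.65 and 13.73 with doxycycline. The groups did not overlap, and the difference was 0.33 ± 0.06 (limma, adjusted p = 0.00328). All 4 LAMP1 probe sets passed at 48 h, with rises of 0.33 to 0.54. LAMP2 depended on the probe set: the brightest gave -0.03 and did not pass, while the other 3 rose by 0.50, 0.62 and 0.42. LAMP2 is known to be spliced into several forms, and which of them each probe set reads was not analysed here.

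MCOLN1, the calcium channel of the lysosome, was lower at 24 h and 48 h. It read 9.0 and 8.85 against 8.39 and 8.40 at 24 h, and 8.71, 8.69 and 8.84 against 8.52, 8.60 and 8.52 at 48 h. At 12 h it read 8.57 and 8.44 against 8.58 and 8.41. The groups overlapped at 12 h and were apart later. The difference was -0.53 ± 0.13 (limma, adjusted p = 0.0491) and -0.20 ± 0.06 (adjusted p = 0.0494), both close to the threshold, and the 48 h call was lost in 12 of 15 alternative analyses, among them those without any one array.

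Of the 7 lysosomal hydrolases, CTSD, CTSL and HEXA were higher at 48 h and none was lower. CTSD encodes cathepsin D, the main aspartic protease of lysosomes. It read 8.84 and 8.97 on the Dox− arrays and 8.34 and 8.63 on the Dox+ arrays at 12 h. At 24 h it read 8.61 and 9.19 against 9.12 and 9.22. At 48 h it read 8.83, 8.84 and 8.85 against 9.36, 9.42 and 9.45. The Dox+ arrays were therefore below at 12 h, mixed with the Dox− arrays at 24 h, and above at 48 h. The differences were -0.42 ± 0.16 (limma, adjusted p = 0.337), 0.27 ± 0.19 (adjusted p = 0.466) and 0.57 ± 0.06 (adjusted p = 0.000109). The difference at 48 h exceeded that at 12 h by 0.99, which passed with array weights (limma, adjusted p = 0.0315) and without them (adjusted p = 0.0129); 1.05% of all genes passed in both fits. It did not pass without any one of the 12 h arrays or without Dox− replicate 3 of 48 h, with adjusted p-values up to 0.252.

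CTSL, the cysteine protease cathepsin L, read 6.95, 7.20 and 6.98 at 48 h without and 7.40, 7.63 and 7.63 with doxycycline. The groups were apart and the difference was 0.51 ± 0.09 (1.43-fold; limma, adjusted p = 0.00301). At 12 h it read 6.92 and 7.15 against 7.09 and 7.17, and at 24 h 7.09 and 7.13 against 7.14 and 7.32. Those differences, 0.10 and 0.12, did not pass. HEXA, a subunit of β-hexosaminidase, rose by 0.21 ± 0.07 (adjusted p = 0.0445), a call lost without any one array except Dox+ replicate 1, and its 3 other probe sets lay between -0.04 and -0.01. CTSA, CTSB, CTSZ and NEU1, which encode the protective protein of lysosomal sialidase, cathepsins B and Z, and sialidase itself, lay between -0.06 and 0.20 at 48 h and did not pass. For CTSB 1 other probe set was lower at 48 h, with -0.28, and 1 was higher at 24 h, with 0.85.

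Probe sets of a gene were read one by one for the 27 genes with more than 1. At 48 h 13 of them had been called in the fit of 1 probe set a gene; for 5 (DRAM2, GABARAPL1, SQSTM1, NBR1 and LAMP1) another probe set passed in the same direction, and for none in the opposite one. Of 105 probe sets of the 42 genes, 18 passed as higher and 5 as lower at 48 h, and 4 and 7 at 24 h, when p-values were adjusted over all probe sets. Of all 41091 probe sets, 3365 were higher and 3776 lower at 48 h, and 849 and 1294 at 24 h.

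Levels of the 42 genes also moved with time in culture, in both groups. From 12 h to 48 h, 34 of the 42 group means rose and 8 fell on Dox− arrays, with a median of 0.23 against -0.06 over all genes. On Dox+ arrays 32 rose and 10 fell, with a median of 0.22 against -0.04 over all genes. The share of all genes that rose, and the medians over brighter genes alone, were not taken, and most of the 42 are such brighter genes. The largest rise on Dox− arrays was that of DRAM1 (0.71), which thus went up in untreated cells by about as much as doxycycline raised it. Time in culture and array batch cannot be told apart here, and no test was run.

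A short palindrome, CACGTG, is part of the site that TFEB and TFE3 recognise, and promoters were searched for it because both factors are among the 42 genes. RefSeq promoter windows (GRCh38.p14, 250 bases before to 50 after the start) were held for 37 of the 42 genes, as 47 windows. The motif, which reads the same on both strands, was found in 7 of the 47 windows, 14.9%, against 7.26% of all 35116 windows of that length. The genes were LAMP1, with 6 copies, ATG3, CTSA and MCOLN1, with 2 each, and CTSD, ATG14 and NEU1, with 1. At 48 h 2 of these 7 were higher (CTSD and LAMP1), 2 lower (ATG3 and MCOLN1) and 3 not past the test. The MCOLN1 call was lost in 12 of 15 alternative analyses. Of all genes at or above the median gene, 17.5% were higher and 22.8% lower. The palindrome with a T before it or an A after it lay in the same 7 windows, 14.9%, against 3.71% of all windows. The longer form known as the CLEAR element, which contains the palindrome, was searched for as 1 fixed sequence without mismatches. That exact sequence was found in the MCOLN1 window only, and in 0.353% of all windows. A window without it may still hold a near match to the element. The windows of the 4 called genes, 2 called in each direction, follow 5′ to 3′ with the palindrome in capitals. They lie at chr11:1763878-1764177 (CTSD, minus strand), chr13:113296989-113297288 (LAMP1, plus strand), chr19:7522374-7522673 (MCOLN1, plus strand) and chr3:112561913-112562212 (ATG3, minus strand).
CTSD: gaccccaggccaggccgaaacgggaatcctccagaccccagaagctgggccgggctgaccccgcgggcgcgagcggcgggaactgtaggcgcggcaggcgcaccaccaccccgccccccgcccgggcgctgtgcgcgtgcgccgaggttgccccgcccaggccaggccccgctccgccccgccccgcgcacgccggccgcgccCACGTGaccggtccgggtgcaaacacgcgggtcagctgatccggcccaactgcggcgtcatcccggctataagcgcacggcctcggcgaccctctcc
LAMP1: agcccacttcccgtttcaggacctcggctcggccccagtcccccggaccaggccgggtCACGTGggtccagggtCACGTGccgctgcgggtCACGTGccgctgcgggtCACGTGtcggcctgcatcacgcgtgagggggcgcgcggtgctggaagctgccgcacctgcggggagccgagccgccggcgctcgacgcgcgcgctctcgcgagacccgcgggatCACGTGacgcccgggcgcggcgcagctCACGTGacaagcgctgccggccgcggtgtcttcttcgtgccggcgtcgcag
MCOLN1: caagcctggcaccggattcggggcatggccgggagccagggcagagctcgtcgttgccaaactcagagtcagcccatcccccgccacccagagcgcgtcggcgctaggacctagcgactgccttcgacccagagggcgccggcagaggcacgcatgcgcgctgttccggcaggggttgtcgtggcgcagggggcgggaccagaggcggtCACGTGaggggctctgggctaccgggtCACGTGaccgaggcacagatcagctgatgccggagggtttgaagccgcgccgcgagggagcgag
ATG3: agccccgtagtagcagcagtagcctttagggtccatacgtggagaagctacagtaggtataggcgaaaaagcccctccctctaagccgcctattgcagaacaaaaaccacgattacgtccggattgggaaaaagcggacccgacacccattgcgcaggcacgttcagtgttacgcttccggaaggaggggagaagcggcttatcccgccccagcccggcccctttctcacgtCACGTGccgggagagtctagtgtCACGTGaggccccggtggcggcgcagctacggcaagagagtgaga
A match is a description of these letters and not a site of binding.

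A decamer that is a half-site of the p53 family, searched on both strands, was found in 2 of the 47 windows (4.26%), against 6.63% of all windows. The windows were those of GABARAPL1 and NEU1. Pairs of half-sites were not searched for. DRAM1 had no match, which says only that those letters are not in this window. GABARAPL1, with the larger rise, is shown with the decamer in capitals (chr12:10212627-10212926, plus strand).
GABARAPL1: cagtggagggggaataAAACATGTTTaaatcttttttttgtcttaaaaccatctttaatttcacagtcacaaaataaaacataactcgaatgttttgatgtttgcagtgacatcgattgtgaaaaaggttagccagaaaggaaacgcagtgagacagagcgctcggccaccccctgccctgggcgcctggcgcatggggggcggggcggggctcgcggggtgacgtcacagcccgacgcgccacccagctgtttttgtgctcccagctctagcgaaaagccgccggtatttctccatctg

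Other genes of the pathway were taken from 8 lists that hold 134 genes, of which 126 were measured. At 48 h 35 of the 126 were higher and 10 lower (27.8% and 7.94%), against 11.3% and 12.9% of all genes. Most of the 126 lay at or above the median gene, where 17.5% of all genes were higher and 22.8% lower. Lysosomal hydrolases and their activators outside the 42 genes showed the highest share: 17 of 29 were higher and none lower, with a median difference of 0.27. Of those at or above the median gene, 16 of 26 were higher (61.5%), against 17.5% of all such genes. The 17 included CTSH, MANBA, FUCA1, CTSS and LIPA, and ARSA, CTSV, NPC2 and CTSO, by 0.56 to 0.80. CTSH, an aminopeptidase of the cathepsin family, read 8.83, 8.82 and 8.93 on the Dox− arrays and 10.42, 10.50 and 10.66 on the Dox+ arrays, 3.19-fold higher (limma, adjusted p = 8.52e-07), and was already 3.26-fold higher at 24 h. FUCA1, which removes fucose from glycans, read 9.45, 9.58 and 9.51 against 11.08, 11.16 and 11.40, 3.25-fold higher (adjusted p = 1.95e-06); its other probe set had a difference of 0.04. The other probe sets of LIPA and ARSA, with 0.20 and 0.11, did not pass either. MANBA, a β-mannosidase, was 2.16-fold higher (adjusted p = 2.45e-05), and CTSS, cathepsin S, 1.93-fold (adjusted p = 1.92e-05). The number of these hydrolases called higher ranged from 14 to 19 over the 14 alternatives and leave-one-out fits, and the number lower from 0 to 3.

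LAMP3, a LAMP family member of the lysosomal membrane, had the largest difference of the lists, and was the only one of these genes to pass at 12 h. It read 5.73, 5.65 and 5.52 against 7.64, 7.65 and 7.76 at 48 h, 4.16-fold higher (limma, adjusted p = 2.07e-07). At 12 h it was 3.35-fold and at 24 h 3.76-fold higher (limma, adjusted p = 0.00709 and 0.000126). Beside the counts of lists that follow stand 11.3% higher and 12.9% lower of all genes, and 17.5% and 22.8% of those at or above the median gene. Of 16 lysosomal membrane genes 5 were higher and 1, CTNS (the cystine carrier, -0.40), lower. V-ATPase subunits, which acidify the lysosome, rose for 6 of 15 genes and fell for ATP6V1B2. The number higher ranged from 2, with the probe set of largest interquartile range, to 7, and was 4 to 5 with an array left out. The number lower ranged from 0 to 2. Of the 10 other ATG8 family and cargo receptor genes, 3 were higher, the receptor genes OPTN (0.69), BNIP3L (0.43) and FUNDC1 (0.47), and 1 lower, PHB2 (-0.23), with limma adjusted p-values of 0.00116, 0.00112, 0.000843 and 0.0166. The count of 3 higher was the same in all 14 alternatives, and that lower ranged from 0 to 2, with 0 without Dox− replicate 3. Of 13 autophagosome fusion genes 1 was higher, PLEKHM1 (0.34), and none without Dox− replicate 2 or 3. Of 13 initiation genes 1 was lower, PIK3C3 (-0.21), none without Dox− replicate 1, 2 or 3 or Dox+ replicate 1 or 2, and 2 without Dox+ replicate 3. At or above the median gene, 8.33% of 12 fusion genes and 9.09% of 11 initiation genes were called, against 40.3% of all such genes. Of the 22 genes of mTORC1 and nutrient sensing, 1 rose, RRAGD (1.73-fold), and 4 fell. That imbalance was not kept in every alternative: quantile normalization gave 4 higher and 4 lower, leaving out dim genes 5 and 4, and the trend and robust options 5 and 5. Without Dox+ replicate 1 there were 2 higher and 3 lower. The AMP kinase subunit gene PRKAA2 fell from 8.03, 8.17 and 7.91 to 6.99, 7.05 and 7.13, a difference of -0.98 ± 0.08 (limma, adjusted p = 2.95e-05), and its 4 other probe sets were lower too.

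LAPTM5, 2.27-fold higher at 48 h, and CTSS are known from leukocytes. The leukocyte list averaged 4.83 to 4.93 on Dox− and 5.19 to 5.22 on Dox+ arrays at 48 h. Its 9 measured genes include PTPRC, CSF1R, CD163 and TYROBP at means of 3.66 to 4.92, none of which passed at 48 h. MRC1, AIF1 and CD3E did not pass either. ITGAM rose by 2.21, to a mean of 7.22 on the Dox+ arrays. By the mean over all arrays, 1 of the 9 lay above the median gene, CD14 (6.57). Its Dox+ arrays all lay above its Dox− arrays at 48 h, with a difference of 0.30 that did not pass (limma, adjusted p = 0.0569). The mean of the fibroblast and stellate list read 6.04 to 6.13 on Dox− arrays and 6.42 to 6.51 on Dox+ arrays at 48 h. In that list LUM was 2.35-fold and ACTA2 1.96-fold higher, and DCN was higher by 0.20. COL1A1 (-0.04), COL3A1 (-0.02) and PDGFRB (-0.21) did not pass. The endothelial list read 4.75 to 4.84 on Dox− and 4.77 to 4.86 on Dox+ arrays. The part of these lists in LAPTM5, CTSS and the other rises was not tested.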

How the data were processed

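Log2 expression values of 14 arrays were analysed as deposited; the authors made them by RMA (the processing notes name R 3.5.1, the methods BRB-ArrayTools), which corrects background, normalizes by quantiles and summarizes each probe set. The labels give DMEM and the methods RPMI as medium. Array medians ran from 5.15 to 5.28, and no filter was applied. Of 54675 probe sets, 62 controls were left out, 41091 named 1 gene in the platform annotation, 1801 several and 11721 none; 41037 of the 41091 were matched by Entrez identifier, giving 19775 genes.

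Each time point had its own comparison of Dox+ and Dox− arrays, fitted with lmFit and eBayes of limma 3.58.1 under R 4.3.3 (2-sided, Benjamini-Hochberg over all genes, threshold 0.05), tested on simulated data. Changes of the difference between times were tested in 1 fit of all arrays with array weights per time point, and reported as differing only where the unweighted fit passed too. The number of arrays and their spread limit the precision. All 42 genes may be named. Values on each array are given for DRAM1, TFEB, ULK1, MAP1LC3B, GABARAPL1 and SQSTM1 and for each gene past the test with an absolute difference of at least 0.5. Single arrays of further genes, genes named outside the 15 with the largest differences of the other lists, and the share called among genes at or above the median gene were chosen after values were seen. The 42 genes and the lists were chosen with earlier results of these data known. Some of the listed genes were not analysed here. Further software was Python 3.11.15, matplotlib 3.10.9 for the plots, numpy 2.4.6, pandas 2.3.3 and the R package data.table, version 1.17.8.

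Alternatives were quantile normalization of the deposited values, dim genes left out, each gene's probe set of largest interquartile range, _x_at probe sets left out, every probe set, all 14 arrays in 1 fit, trend and robust options, the replicate block, the methods' t-test, no array weights and each array left out in turn. A crossed pairing at 24 h was added after the data were seen.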

Additional observations from a re-analysis of the deposited data

Results flagged for a closer look

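CTSD passed the test of a difference between times: Dox+ minus Dox− was 0.99 higher at 48 h than at 12 h (limma, adjusted p = 0.0315 with and 0.0129 without array weights). Its Dox+ arrays lay below all Dox− arrays at 12 h and above them at 48 h. The change ranged from 0.85 to 1.13 over 16 alternatives. It did not pass in 6 of them, among them dim genes left out and each fit without a 12 h array.

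For 3 other genes the arrays of the groups were apart in opposite directions at 2 times. MAP1LC3B had its Dox+ arrays below at 24 h and above at 48 h, a change of 0.91 that passed with array weights (limma, adjusted p = 0.0493) and not without (0.145). The HEXA arrays did the same, with a change of 0.38 (limma, adjusted p = 0.278), and those of WIPI2 went from above at 12 h to below at 48 h, a change of -0.25 (limma, adjusted p = 0.431). The separation itself was not tested, and groups that do not overlap made up 39.3% of all genes at 48 h and 46.8% to 50.3% at the earlier times.

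A probe set naming both GABARAPL1 and GABARAPL3, left out of the comparisons because it names 2 genes, was 1.15 higher in Dox+ cells at 48 h. It read 6.84, 6.93 and 7.06 on the Dox− arrays and 7.98, 8.0 and 8.30 on the Dox+ arrays. Its Dox+ arrays lay above at 12 h and 24 h too, by 0.45 and 0.62. GABARAPL1 and GABARAPL3 cannot be told apart by it.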

How the results depend on the processing

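Of the 18 calls at 48 h, DRAM1, DRAM2, ATG3, GABARAPL1, LAMP1 and CTSD passed in every alternative that gave a value, and 17 kept their direction in all. ATG13, WIPI2, SQSTM1, NBR1, MCOLN1 and HEXA failed in at least 3. With the probe set of largest interquartile range, ATG10 at 24 h became -0.65 (limma, adjusted p = 0.166) and HEXA at 48 h -0.01 (adjusted p = 0.981); the cause was not tested, and the value comes from another probe set. Genes higher at 12 h went from 0 to 1, and lower from 0 to 1, with all 14 arrays in 1 fit. The 2 higher at 24 h became 1 (interquartile range), 4 (trend and robust) and 0 (methods' t-test), and 0 to 2 with an array left out, 0 if Dox− replicate 2 or Dox+ replicate 1 was missing. The 3 lower at 24 h became 0 (quantile normalization), 7 (dim genes left out), 6 (interquartile range), 7 (all 14 arrays), 8 (trend and robust) and 0 (methods' t-test), and 0 without any one array. The 11 higher at 48 h became 6 (all 14 arrays), and 10 to 11 with an array left out. The 7 lower at 48 h became 4 (interquartile range), 2 (every probe set), 1 (all 14 arrays) and 3 (replicate block), and 2 to 5 with an array left out: 4 if Dox− replicate 2 was missing, 5 if Dox+ replicate 3 was, and 2 otherwise. The single difference between 48 h and 12 h became 0 with dim genes left out and 0 to 1 with an array left out; that between 48 h and 24 h became 0 (no array weights), 3 (dim genes left out), 0 (interquartile range), 3 (trend and robust) and 0 without any one array. Deviations from the group mean on same-numbered Dox+ and Dox− arrays had correlations over genes of 0.255 at 12 h and -0.11 at 24 h. At 48 h these correlations were 0.109, 0.0892 and 0.102. Differently numbered ones gave -0.255 at 12 h, 0.11 at 24 h and -0.0163 to -0.0764 at 48 h. With 2 arrays a group, the value for differently numbered arrays is fixed as that for same-numbered ones with its sign reversed, and adds nothing to it. Correlations of same-numbered arrays were positive at 12 h and 48 h and negative at 24 h. They were not tested, and the main fits did not pair the cultures. The replicate block gave 2 higher and 2 lower at 24 h and 10 higher at 48 h, and none at 12 h. Over all genes the block gave 385 higher and 84 lower at 12 h. Crossing the pairs at 24 h gave 3 higher and 4 lower genes of the 42, and 778 and 815 of all genes, an analysis added after the data were seen. Over all genes, the counts at 12 h (128 higher, 4 lower) ranged from 0 with the methods' t-test to 1040 and 643 with all 14 arrays. Those at 24 h (596 and 556) ranged from 0 with the methods' t-test to 1106 higher with all 14 arrays and 1294 lower with every probe set, and were 615 and 345 with quantile normalization. Those at 48 h (2229 and 2549) ranged from 1437 and 1361 with all 14 arrays to 3365 and 3776 with every probe set. ULK2, MITF and GABARAPL1 lay below the median gene, and no measure of signal over background was used here.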
